A study of Mus musculus with 11 samples.

Results

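miR-140, miR-335, miR-361 and miR-708 are microRNAs (miRNAs), short RNAs that guide silencing of messenger RNAs, and each is cut from a single hairpin inside an intron of a protein-coding gene. Both arms of the 4 hairpins (the 5p and 3p strands of each stem) were taken by name, which gave 8 of the 1966 mature miRNAs listed in the count table: mmu-miR-140-5p, mmu-miR-140-3p, mmu-miR-335-5p, mmu-miR-335-3p, mmu-miR-361-5p, mmu-miR-361-3p, mmu-miR-708-5p and mmu-miR-708-3p. They were selected on name and hairpin position with no threshold on counts, but after their counts in these 11 libraries and the changes between groups had been seen. Their levels are therefore a description, and their calls, which come from a fit over all miRNAs, do not show that they differ from other miRNAs. The series held 11 libraries of small RNA from mouse embryonic stem cells in 5 groups, made to compare a mutant form of the protein DGCR8 with the wild-type form and with its absence. The 3 KO libraries were labelled DGCR8 -/- and non-transfected, and received 300 ng/mL doxycycline for 48 h. The 3 induced wild-type libraries (genotype label DGCR8 wt/wt; clones 10, 12 and 16) and the 3 induced E518K libraries (DGCR8 E518K/E518K; clones 8, 13 and 15) came from cells given the same doxycycline treatment. Their vectors were pSB ET iE-FlagDGCR8-wt or pSB ET iE-FlagDGCR8-E518K, brought in with pCMV(CAT)-SB100X, a source of transposase. Wild-type clone 10 and E518K clone 8 were each also sequenced once untreated, and all 11 libraries carried the same strain entry, NBA1-19349. The series' design text speaks of 3 independent clones for each condition, whereas all 3 KO titles name clone 261. The sources used here do not settle which holds for the KO, so its 3 libraries may differ only technically. DGCR8 protein was not measured, so vector dose and the activity of the mutant cannot be told apart here.

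In the nucleus, DGCR8 binds the hairpin within a primary transcript and holds the nuclease Drosha, which cuts the hairpin free; Dicer then cuts off the loop, and 1 of the arms is usually kept by an Argonaute protein while the other is degraded. An intronic hairpin is transcribed with its host gene, and Drosha can cut it before or while the intron is spliced. miR-140 is best known from cartilage, where it is needed for normal skeletal growth, and its host Wwp2 encodes a ubiquitin ligase. miR-335 lies in Mest, an imprinted gene read from the paternal chromosome. The host of miR-361 is Chm, which encodes an escort protein of Rab GTPases, and the host of miR-708 is Tenm4, which encodes a teneurin of the cell surface. Messenger RNA of the hosts was not measured in these libraries.

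The mature sequences are shown because the seed (bases 2 to 8, in capitals), which pairs with targets, differs between all of them, so that each arm has its own set of possible targets. They are RefSeq sequences on build GRCm38.p6, which held 7 of the 8 arms.
miR-140-3p: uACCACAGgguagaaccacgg
miR-335-5p: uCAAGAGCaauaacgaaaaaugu
miR-335-3p: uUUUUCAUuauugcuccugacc
miR-361-5p: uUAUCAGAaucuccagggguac
miR-361-3p: uCCCCCAGgugugauucugauuugu
miR-708-5p: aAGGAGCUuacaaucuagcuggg
miR-708-3p: cAACUAGAcugugagcuucuag

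Outside the 8, the deposited table held 1 miRNA with the seed of miR-140-3p (miR-497b) and 1 with the seed of miR-708-5p (miR-28a-5p). The hairpins that RefSeq holds are given next with the arms listed above in capitals, to show where the arms sit. These annotated hairpins run past the marked arms, so they do not give the length of the cut stem.
Mir140: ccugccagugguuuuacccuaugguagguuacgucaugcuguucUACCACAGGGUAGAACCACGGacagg
Mir335: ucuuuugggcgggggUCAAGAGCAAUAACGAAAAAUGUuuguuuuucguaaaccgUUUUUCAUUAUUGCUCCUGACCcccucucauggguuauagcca
Mir361: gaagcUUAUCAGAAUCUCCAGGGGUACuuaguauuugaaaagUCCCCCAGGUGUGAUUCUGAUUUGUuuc

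The GC content was 52.9% in Mir140, 42.9% in Mir335 and 41.4% in Mir361, beside a median of 51.7% over 1005 RefSeq hairpins. The arms lie 17 bases apart in Mir335, 15 in Mir361 and 23 in Mir708, beside a median of 16 over 644 hairpins with both arms. The letters UGU, searched on the RNA strand between the arms, occurred in Mir335, not in Mir361, and in 31.5% of the 644 hairpins.

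All coordinates are on GRCm38.p6. Mir140 (chr8:107551244-107551313, plus strand) lies in intron 16 of transcript Wwp2-201, an intron of 2141 bases, 1108 bases after the upstream exon, and also overlaps an exon of Wwp2-206, a retained-intron transcript. Mir335 (chr6:30741299-30741396, plus strand) lies in intron 2 of Mest-201, which is 1316 bases long, 474 bases after the upstream exon. Mir361 (chrX:113074824-113074893, minus strand) lies in intron 9 of Chm-201, which is 8116 bases long. Mir708 (chr7:96249424-96249532, plus strand) lies in intron 1 of Tenm4-201, which spans 183862 bases. All 4 share the host's strand, lie at least 474 bases from an exon of a coding transcript, and have no other annotated hairpin within 10 kb. In none of the 8 did another row of the table hold the same counts within 2%, so no duplicate row was seen. Sharing of only a part of the reads cannot be seen in this way.

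Total miRNA counts were 166676 to 208846 in the KO, 1050564 to 1797240 in induced E518K, 3394216 to 6128734 in induced wild type and, without doxycycline, 1421247 (wild type) and 264507 (E518K). Levels are CPM, counts relative to a library total that was scaled by the trimmed mean of M values (TMM), and all 8 arms were among the 730 miRNAs that passed the low-count filter. Most low counts were even (90.3% of counts from 1 to 40), so small RNAs seem to be counted in pairs, and a library with 0 counts was given a limit of 6 counts, which is 12.8 to 18.3 TMM CPM in the KO. Limits and intervals cover counting error only. The 10 stem cell miRNAs on the marker list held 5.33% to 8.12% of the counts in induced wild type and 3.04% to 4.46% in induced E518K, all detected in each. In the KO they held 0.0204% to 0.0490%, with miR-302a-3p, miR-302b-3p and miR-302d-3p at 0, and without doxycycline 3.68% (wild type) and 0.306% (E518K). The 12 markers of other cell types held 0.203% to 0.325% in induced wild type, 0.149% to 0.196% in induced E518K and 0.903% to 1.18% in the KO, with miR-223-3p at 0 in all 3 and miR-124-3p at 0 in the KO. Their part in the results was not tested. Wild-type clone 16 stood apart from the other wild-type clones: leaving it out moved the median log2 change of all tested miRNAs in E518K against wild type from −0.14 to 0.73, with 250 called higher and 164 lower in place of 206 and 258. The libraries were scaled anew in that fit, and the 8 arms moved up with the median, by 0.71 to 1.12. Changes given below without clone 16 therefore cannot be read off the printed levels. A lower level in these bulk libraries can come from fewer cells that make the miRNA or from less per cell, which cannot be told apart.

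The first comparison set E518K against wild-type DGCR8, both induced. The 4 hairpins did not move together: both arms of miR-140 fell, miR-361-5p fell, miR-708-3p rose, and the other 4 arms did not pass the test. By edgeR's quasi-likelihood test with Benjamini-Hochberg adjustment over 730 miRNAs at a threshold of 0.05, 4 of 8 were called, where 63.6% of all tested miRNAs were. Of these, 3 were lower (35.3% of all tested) and 1 was higher (28.2% of all tested). For 4 of 8 arms no E518K library lay within the wild-type range or the reverse, beside 64.5% of all tested miRNAs. These shares are near or below the background. The median log2 change was −0.73 over the 8 and −0.14 over all tested miRNAs (0 with miRNAs at 0 in a group at their minimum change).

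**Figure D1:**
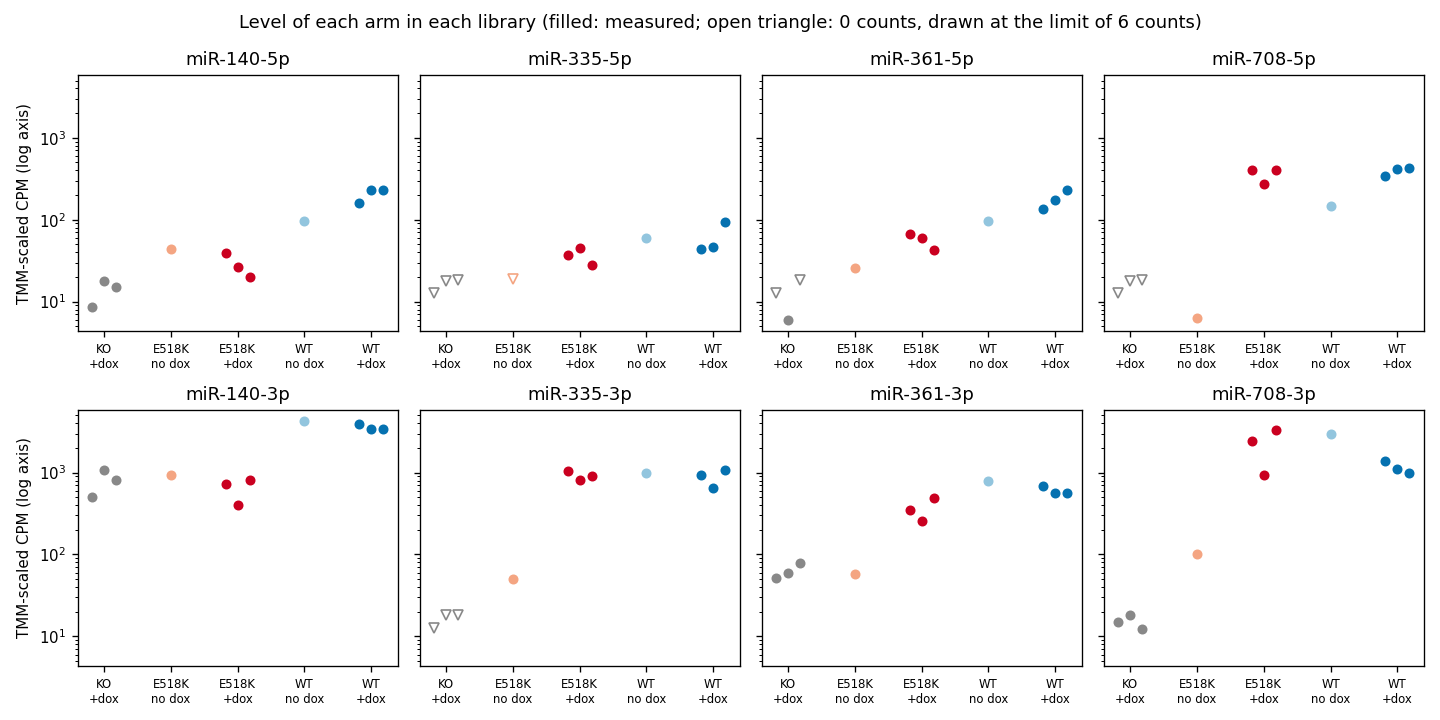
Level of each arm in TMM CPM (log axis) in every library, with 1 panel per arm (5p above, 3p below) and 1 colour per group; open triangles mark libraries with 0 counts, drawn at the limit of 6 counts. miR-140-3p stays between 505.2 and 1071 in the KO, while miR-335-3p has 0 counts there and lies between 811 and 1037 in induced E518K.

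miR-140-3p, the most abundant of the 8 in induced wild type, was at 3968, 3455 and 3433 TMM CPM in wild-type clones 10, 12 and 16, and at 719, 406 and 808 in E518K clones 8, 13 and 15. Every E518K library was below every wild-type library, and the fitted log2 change was −2.49 ± 0.39 (SE, n = 3 each; adjusted p = 2.6e-09, edgeR), a 5.62-fold fall. miR-140-5p, the less abundant strand, was at 161, 233 and 231 in wild type and at 39.3, 26.6 and 20.1 in E518K, again with no overlap (−2.85 ± 0.48, adjusted p = 2.2e-08). Without wild-type clone 16, where the median of all tested miRNAs was 0.73, the changes were −1.76 for the 3p and −2.11 for the 5p arm. Both still passed (adjusted p = 0.00089 and 0.0011, edgeR). 

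miR-361-5p was at 136, 175 and 234 TMM CPM in wild-type clones 10, 12 and 16 and at 66.7, 59.9 and 42.3 in E518K clones 8, 13 and 15. The log2 change was −1.68 ± 0.46 (adjusted p = 0.00060, edgeR), and leaving out wild-type clone 16 ended the call (−0.79, adjusted p = 0.23). Its partner miR-361-3p was at 682, 567 and 567 in wild type and at 354, 254 and 488.4 in E518K. These groups did not overlap either, yet the change of −0.73 ± 0.39 did not pass (adjusted p = 0.091). It passed with DESeq2-type size factors (−0.94, adjusted p = 0.023), with DESeq2 (−0.94, 0.014) and with only the compared groups in the fit (−0.69, 0.034), and it was 0.01 without wild-type clone 16.

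miR-335-3p was at 930, 645 and 1084 TMM CPM in wild type and at 1037, 811 and 900 in E518K, so that the groups overlapped (0.05 ± 0.38, adjusted p = 0.91). miR-335-5p was at 44.1, 46.1 and 93.9 in wild type, where clone 16 was the high library, and at 37.3, 45.7 and 28.2 in E518K (−0.73 ± 0.48, adjusted p = 0.17). Leaving out wild-type clone 16 gave 0.39 for miR-335-5p and 0.94 for miR-335-3p.

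miR-708-3p was at 1402, 1103 and 981 TMM CPM in wild type and at 2456, 935 and 3343 in E518K, where clones 8 and 15 were high and clone 13 lay below all wild-type libraries. The fit called it higher (0.95 ± 0.38, adjusted p = 0.021, edgeR), although the groups overlapped. The call was lost without E518K clone 15 (0.54, adjusted p = 0.28), E518K clone 8 (1.14, 0.052) or wild-type clone 12 (0.93, 0.12), and with DESeq2 (0.72, 0.17), DESeq2-type size factors (0.72, 0.11) and the authors' own scaling, called pRPM (0.78, 0.11); without wild-type clone 16 it was 1.66. miR-708-5p was at 341, 413 and 429 in wild type and 405, 272 and 406 in E518K, which overlapped (−0.13 ± 0.40, adjusted p = 0.78), and was at 0.68 without wild-type clone 16.

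**Figure D2:**
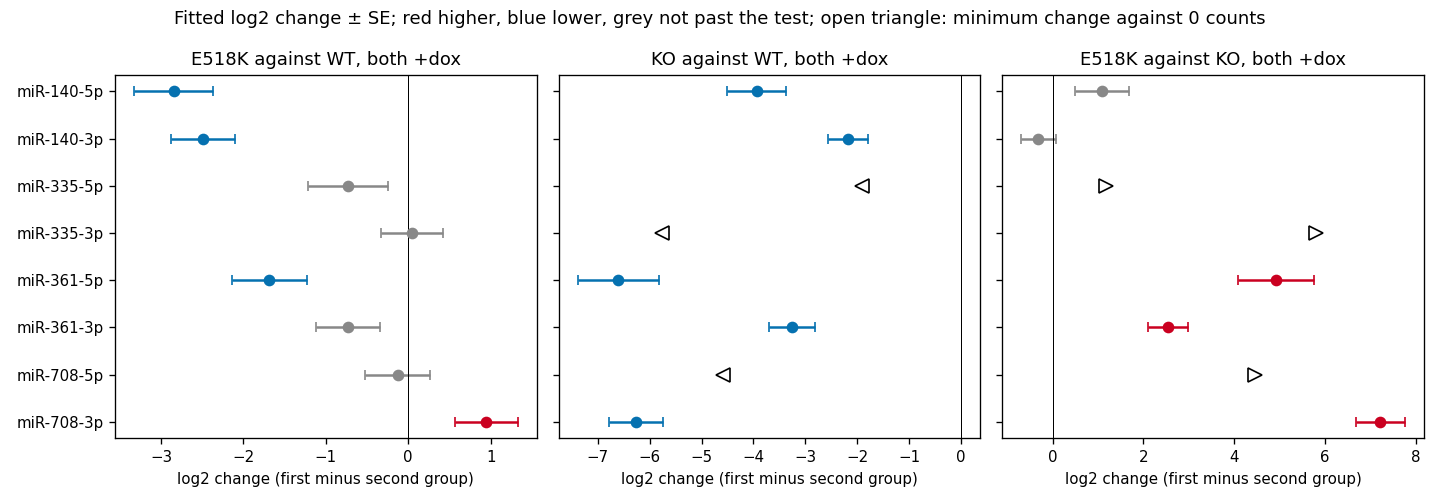
Fitted log2 change with its SE for the 8 arms in each comparison of induced groups (n = 3 libraries each); red passed the test as higher, blue as lower, grey did not pass, and open triangles are minimum changes where all KO libraries had 0 counts. In the first panel both arms of miR-140 lie at −2.85 and −2.49 while miR-708-3p lies at 0.95.

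How far E518K lies from wild type depends on the reference used to scale the libraries. Total counts, DESeq2-type size factors and the authors' pRPM scaling left both arms of miR-140 and miR-361-5p lower, with miR-140-3p between −2.70 and −2.16. The pRPM library size equals the total count times a factor that is the same within a group and differs between groups. Its origin is not known from the sources used here, so what it adds to a comparison cannot be told apart from group. When the summed counts of miRNAs known to be made without DGCR8 (miR-320, miR-484, miR-877, miR-702, miR-1983, miR-1291, miR-1839 and miR-1224) set the scaling, all 8 arms fell (8 of 8 called lower), from −1.79 for miR-708-3p to −5.63 for miR-140-5p. The median of all tested miRNAs was −2.90 under that scaling, −0.29 with size factors, 0.21 with total counts and −0.19 with pRPM scaling. Of all tested miRNAs 206 were called higher and 258 lower with TMM, against 12 and 498 with the list. Relative to these medians miR-140 was lower under every one of the 5 scalings and miR-708-3p higher. A change of scaling moves all miRNAs nearly alike, so this order was bound to hold and adds no support.

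**Figure D3:**
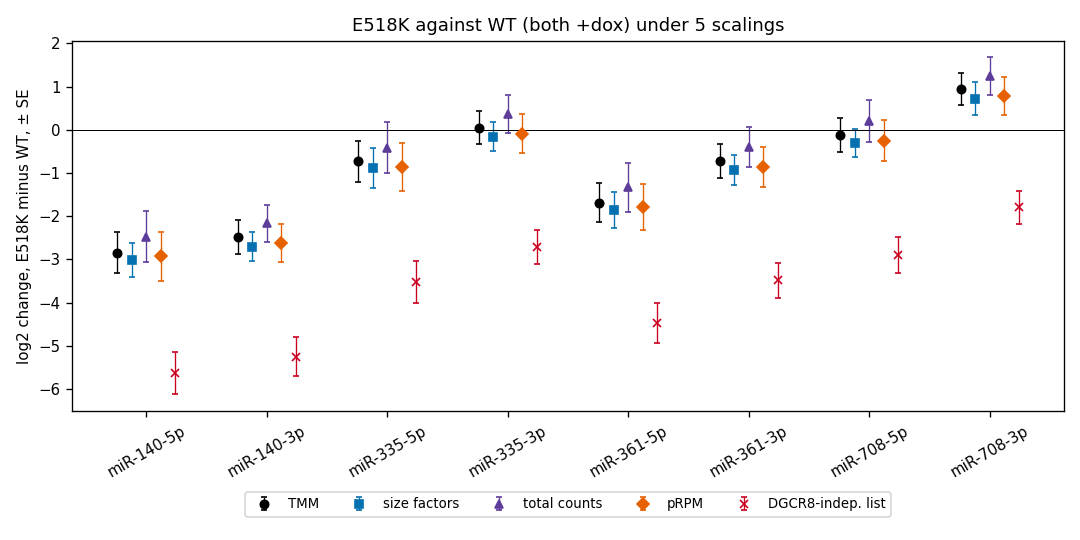
Log2 change of E518K against wild type (both induced) with its SE for each arm under 5 scalings, 1 symbol per scaling. The DGCR8-independent list moves every arm below 0, from −1.79 to −5.63. A change of scaling moves all arms nearly alike, so the order from miR-140 (lowest) to miR-708-3p (highest) is bound to be kept.

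Ratios between hairpins within a library do not depend on scaling. miR-708-3p had 0.353, 0.319 and 0.286 counts per count of miR-140-3p in wild-type clones 10, 12 and 16, and 3.42, 2.31 and 4.14 in E518K clones 8, 13 and 15. The ratio was thus 10.0-fold higher in E518K, with every E518K library above 1 and every wild-type library below it. miR-335-3p over miR-140-3p went from 0.234, 0.187 and 0.316 to 1.44, 2.00 and 1.11, a 6.15-fold rise in the geometric mean. miR-361-3p over miR-140-3p went from 0.172, 0.164 and 0.165 to 0.492, 0.627 and 0.605, which is 3.42-fold. miR-708-3p over miR-361-3p was 2.93-fold higher in E518K (geometric means 5.59 and 1.91), again without overlap. The other 2 of the 6 ratios overlapped between groups. In two-sided exact permutation tests the 4 ratios without overlap reached p = 0.10, the smallest that 3 against 3 allows (0.15 adjusted over 6 ratios), so none can pass 0.05 in this design.

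**Figure D4:**
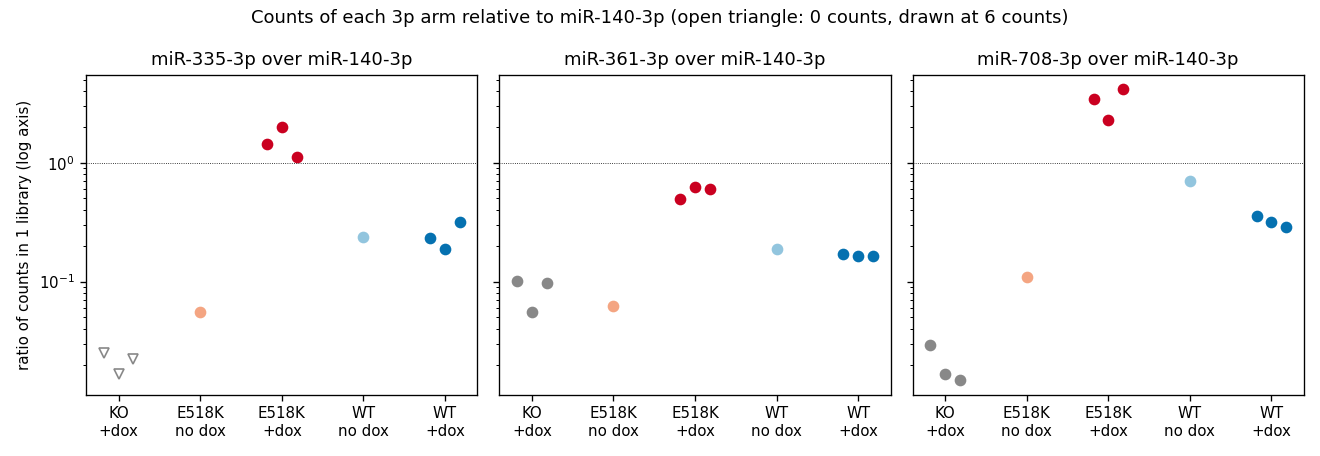
Counts of miR-335-3p, miR-361-3p and miR-708-3p divided by those of miR-140-3p in the same library (log axis), by group; open triangles are libraries with 0 counts in the numerator, drawn at 6 counts. In induced E518K miR-708-3p lies between 2.31 and 4.14, in induced wild type between 0.286 and 0.353 and in the KO between 0.0149 and 0.0295.

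The second comparison, KO against induced wild type, asked which arms are still seen without DGCR8. All 8 fell (7 with total counts), where 88.4% of all tested miRNAs were called, 58.4% as lower and 30% as higher, and in all 8 every KO library was below every wild-type library, beside 84.9% of all tested with no overlap. How much was left differed between hairpins: miR-140-3p and miR-361-3p stayed well above the limit, miR-140-5p and miR-708-3p lay near it, and miR-335 and miR-708-5p were at 0. The median log2 change was −6.43 over the 8 as fitted, and −4.26 with the arms at 0 set to their minimum change; over all tested miRNAs it was −3.54 and −0.31. The fitted median of all tested miRNAs was −2.03 with total counts, −5.19 with pRPM scaling and −8.23 with the DGCR8-independent list, and single arms move with it. Calls over all tested miRNAs were 219 higher and 426 lower with TMM, and 26 and 536 with the list.

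miR-140-3p had 237, 357 and 269 counts in KO libraries 1, 2 and 3, which is 505.2, 1071 and 821 TMM CPM, against 3619 ± 303 (SD, n = 3) in wild type (log2 change −2.18 ± 0.39, adjusted p = 6.2e-08, edgeR). By mean level it ranked 33 of 1966 in the KO and 35 in induced wild type. With total counts the fall was −0.60 and did not pass (adjusted p = 0.17), with pRPM scaling it was −4.06, with the DGCR8-independent list −7.45, and without KO library 3 −1.58. The KO had 4, 6 and 5 counts of miR-140-5p (8.53, 18.01 and 15.3 TMM CPM), near the limit (−3.94 ± 0.57, −3.34 without wild-type clone 12, −2.37 with total counts and −5.81 with pRPM scaling).

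miR-361-3p had 24, 20 and 26 counts in the KO libraries, 63.5 ± 14.4 TMM CPM (SD, n = 3), and changed by −3.26 ± 0.45 (adjusted p = 2e-12, edgeR), with −2.47 without KO library 2 and −2.63 without wild-type clone 10. With total counts this was −1.66 and with pRPM scaling −5.12. miR-361-5p had 2 counts, all in KO library 2, against 2114 over the wild-type libraries, a 111-fold difference with a 95% counting interval from 19.9 to 4401 (exact binomial, counts divided by 2). Its fitted change was −6.60, −5.10 with total counts, −8.41 with pRPM scaling and −5.51 without KO library 3, and without KO library 2 it had 0 counts in the KO.

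miR-708-3p had 7, 6 and 4 counts in the KO, 15.0 ± 2.90 TMM CPM, near the limit, and changed by −6.26 ± 0.52 (adjusted p = 1.2e-29, edgeR). Leaving out KO library 1, 2 or 3 gave −6.93, −5.58 and −5.42, and leaving out wild-type clone 10 or 12 gave −5.53 and −5.65. Total counts gave −4.64 and pRPM scaling −8.08. miR-708-5p had 0 counts in every KO library and was at least 24.1-fold lower than in wild type, against the limit of 6 counts per library. In the same way miR-335-3p was at least 54.1-fold lower and miR-335-5p at least 3.75-fold lower, and both had 0 counts throughout the KO. These minimum folds are on the TMM scale. With total counts they were 8.16 for miR-708-5p, 18.9 for miR-335-3p and 1.37 for miR-335-5p, and with pRPM scaling 90.1, 208.4 and 15.1.

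The third comparison asked what induced E518K gave over the KO; it shares its libraries with the other comparisons. The arms split by hairpin: 6 of 8 were called, all higher in E518K, where 68.1% of all tested miRNAs were called and 41.9% were higher, namely both arms of miR-335, miR-361 and miR-708, while neither arm of miR-140 passed. E518K and KO libraries were apart for 7 of 8 arms, beside 67.5% of all tested miRNAs. The median log2 change was 6.07 over the 8 as fitted and 3.50 with arms at 0 in the KO at their minimum; over all tested miRNAs it was 1.35 and 0. Over all tested miRNAs 306 were higher and 191 lower with TMM, 250 and 249 with total counts, 380 and 61 with pRPM scaling, and 412 and 30 with the list.

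miR-335-3p, at 916 ± 114 TMM CPM in E518K (SD, n = 3), was at least 56.0-fold above the KO, miR-708-5p (360.9 ± 77.1) at least 22.1-fold and miR-335-5p (37.1 ± 8.77) at least 2.27-fold, all on the TMM scale. With total counts these minimum folds were 24.4, 9.38 and 1.04, so that for miR-335-5p the KO limit was near the E518K level, and with pRPM scaling they were 196.0, 75.4 and 8.33. miR-708-3p, at 2245 ± 1218 in E518K, was higher by 7.21 ± 0.54 on the log2 scale (adjusted p = 6e-36, edgeR), by 7.91, 6.56 and 6.39 without KO library 1, 2 or 3, by 5.88 with total counts, by 8.87 with pRPM scaling and by 9.63 with the DGCR8-independent list. miR-361-3p, at 366 ± 117, was higher by 2.53 ± 0.44 (adjusted p = 3.8e-08), by 1.75 without KO library 2, by 1.27 with total counts and by 4.27 with pRPM scaling. For miR-361-5p, 216 counts in E518K stood against 2 in the KO, 32.8-fold with a 95% counting interval from 5.76 to 1306; the fitted change of 4.92 was 3.67 without KO library 3, 4.18, 4.26 and 5.93 without E518K clones 8, 13 and 15, 3.77 with total counts and 6.63 with pRPM scaling, and it rested on 0 KO counts without KO library 2.

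The levels of miR-140-3p in E518K (719, 406 and 808 TMM CPM) and in the KO (505.2, 1071 and 821) overlapped, and the change was −0.31 ± 0.38 (adjusted p = 0.46, edgeR). The direction of this difference depends on the scaling: total counts gave −1.57 (called lower, adjusted p = 0.00049), pRPM scaling 1.44 (called higher, 0.0018) and the DGCR8-independent list 2.20 (called higher, 4.7e-08). Total counts and pRPM scaling differ only by the group factor of unknown origin described above. It was 0.17 without KO library 1, −0.94 without KO library 3 and 0.29 without E518K clone 15. miR-140-5p did not overlap between the groups (20.1 to 39.3 in E518K, 8.53 to 18.01 in the KO), and 1.09 ± 0.59 did not pass (adjusted p = 0.090). It passed without KO library 1 (1.52, adjusted p = 0.022) and without E518K clone 15 (2.12, 0.0018), with pRPM scaling (2.89) and with the list (3.50). It was 0.46 without KO library 2, 0.38 without KO library 3, 0.19 without E518K clone 8 and 0.50 without E518K clone 13, and total counts turned it to −0.10.

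The 3p arm was the more abundant one in all 4 hairpins and all libraries with counts. The 5p share of the counts of both arms in wild-type clones 10, 12 and 16 was 3.91%, 6.32% and 6.30% for miR-140, 4.53%, 6.68% and 7.97% for miR-335, 16.6%, 23.6% and 29.2% for miR-361, and 19.6%, 27.2% and 30.4% for miR-708. In E518K clones 8, 13 and 15 it was 5.18%, 6.15% and 2.43% for miR-140, 3.47%, 5.33% and 3.04% for miR-335, 15.9%, 19.0% and 7.97% for miR-361, and 14.2%, 22.5% and 10.8% for miR-708. Within each group the 4 hairpins had the same lowest library, wild-type clone 10 and E518K clone 15, and clone 13 was the highest E518K library in all 4. As background, log2 of 5p over 3p counts was taken for 69 other hairpins with at least 10 counts of each arm in every induced wild-type and E518K library. Of these, 47.8% lay above their own mean in wild-type clone 10 and 52.2% in E518K clone 15, against 0% of the 4 hairpins in both.

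The difference in mean share, E518K minus wild type, was −9.91 percentage points for miR-708 (15.8% ± 6.03 against 25.7% ± 5.57, SD, n = 3 each), −8.83 for miR-361, −2.45 for miR-335 and −0.92 for miR-140, and the groups overlapped in all 4. Two-sided exact permutation tests gave p = 0.20 for miR-708, miR-361 and miR-335 and p = 0.50 for miR-140 (0.27 and 0.50 adjusted over 4 hairpins). In log2 of 5p over 3p counts, the median difference was −0.82 over the 4 hairpins, with all 4 below 0. Over the 69 other hairpins it was 0.11, with 46.4% below 0. Whether the 4 differ from the others was not tested. Without E518K clone 15 the difference for miR-140 was 0.155 percentage points, and for miR-361 it was −5.67. In the KO the 5p share of miR-140 was 1.66%, 1.65% and 1.82%, below all 6 induced libraries. These KO shares rest on 4, 6 and 5 counts of the 5p arm, at or under the limit of 6 counts, so they are uncertain.

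**Figure D5:**
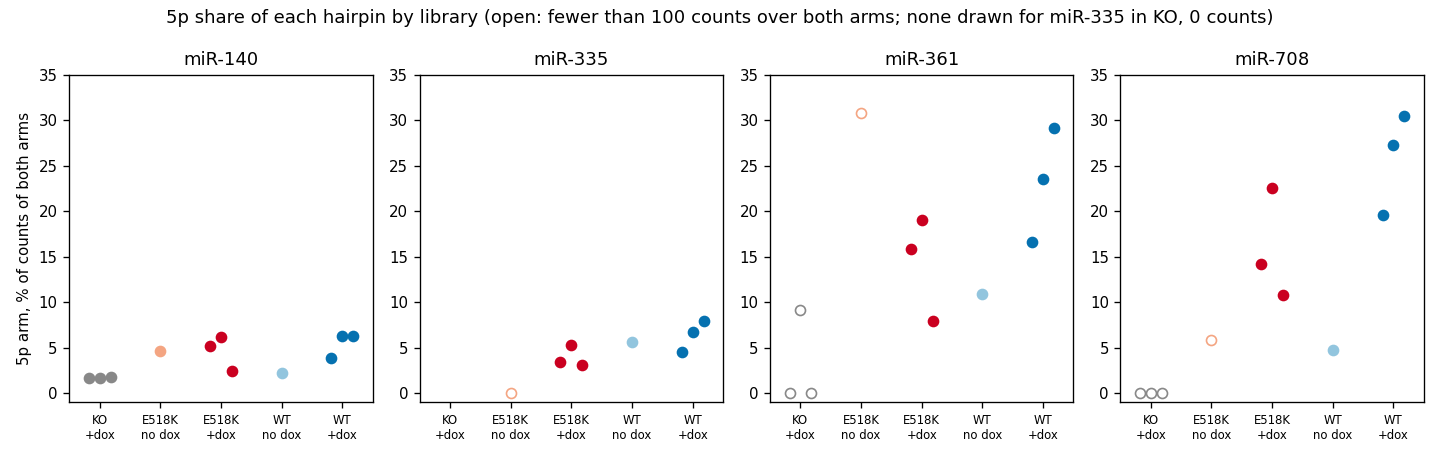
Share of the 5p arm in the counts of both arms of each hairpin, in percent, by library and group; open symbols are libraries with fewer than 100 counts over both arms, and miR-335 had 0 counts in the KO. The induced wild-type libraries of miR-708 lie between 19.6% and 30.4% and the induced E518K libraries between 10.8% and 22.5%, so that these groups overlap, while the untreated libraries lie at 4.69% (wild type) and 5.88% (E518K). The untreated E518K value rests on 2 of 34 counts, with a 95% counting interval from 0.720% to 19.7% (exact binomial), which reaches into the induced E518K range.

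The untreated libraries show how much of each arm was seen without doxycycline. With 1 library per group these levels have no replicate check. Genotype, clone and library cannot be told apart in them, and they were not tested. In untreated wild-type clone 10 the 3p arms were already near or above their induced levels on the TMM scale: miR-140-3p was at 4235 TMM CPM (3968 in the same clone after induction), miR-335-3p at 1000.0 (930), miR-361-3p at 790 (682) and miR-708-3p at 2961 (1402). All 4 exceed the highest KO library. The 5p arms of miR-140, miR-361 and miR-708 were at 96.2, 96.2 and 146 before and 161, 136 and 341 after induction, and that of miR-335 at 59.8 and 44.1. With pRPM scaling miR-140-3p went from 1402 before to 2237 after induction, miR-335-3p from 331 to 524 and miR-361-3p from 262 to 385. On that scale miR-335-5p also rose, from 19.8 to 24.9, while miR-708-3p fell from 980 to 790.

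Untreated E518K clone 8 had little of 3 of the hairpins. It had 16 counts of miR-335-3p (50.8 TMM CPM, 1037 after induction), 32 of miR-708-3p (102, then 2456) and 18 of miR-361-3p (57.2, then 354). miR-708-5p had 2 counts against 619 in the induced library, 63.9-fold with a 95% counting interval from 11.4 to 2530, and miR-335-5p went from 0 to 57 counts, at least 1.96-fold. miR-361-5p went from 25.4 to 66.7. miR-140 was at 924 TMM CPM for the 3p arm before and 719 after induction, and at 44.5 and 39.3 for the 5p arm. Both arms rose instead under pRPM scaling, the 3p arm from 152.3 to 417.9 and the 5p arm from 7.33 to 22.8. The direction of miR-140 on induction in this clone thus depends on the scaling. For pRPM it rests on a group factor of unknown origin, which differs between the untreated and induced library.

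Ordered by mean TMM CPM, miR-140-3p ran from untreated wild type (4235) and induced wild type (3619 ± 303) to untreated E518K (924), KO (799 ± 284) and induced E518K (644 ± 211). Neighbours among the last 3 do not differ beyond their spread on this scale. miR-708-3p ran from untreated wild type (2961) over induced E518K (2245 ± 1218) to induced wild type (1162 ± 217), each within the range of the E518K libraries or overlapping it, and on to untreated E518K (102) and the KO (15.0 ± 2.90). For miR-335-3p untreated wild type (1000.0), induced E518K (916 ± 114) and induced wild type (886 ± 223) lay within their spread, above untreated E518K (50.8) and the KO (0 counts). miR-361-3p ran from untreated wild type (790) and induced wild type (605 ± 66.6) to induced E518K (366 ± 117), then KO (63.5 ± 14.4) and untreated E518K (57.2), which lay within the KO spread.

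The other miRNAs with a single hairpin in an intron of a coding gene on its strand were listed from the GENCODE annotation, 762 in all, of which 204 passed the low-count filter; hairpins in clusters were left out. In E518K against wild type 78 of these 204 were higher and 59 lower, with a fitted median log2 change of 1.12 (0.53 with miRNAs at 0 in a group set to their minimum change). In KO against wild type 110 were higher and 73 lower, with a median of 3.36 (2.28 at the minimum), and in E518K against KO 39 were higher and 95 lower (−2.24, and −1.82 at the minimum). Kept to hairpins at least 100 bases from every exon, a limit chosen after the values were seen, the list had 104 tested members. Of these, 23 were higher and 56 lower in E518K against wild type (median −1.74, and −1.26 at the minimum), 19 and 71 in KO against wild type (−4.58 and −0.48), and 39 and 28 in E518K against KO (1.33 and 0).

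Some other miRNAs shared a seed or a profile with the 8. miR-28a-5p, with the seed of miR-708-5p, fell in E518K (adjusted p = 5.3e-08, edgeR), with 8 counts there against 365 in wild type, a 15.8-fold difference with a 95% counting interval from 6.06 to 58.6, while the change of miR-708-5p did not pass the test; the difference between these changes was not tested. miR-497b, with the seed of miR-140-3p, fell too (adjusted p = 1.4e-06), with 4 counts in E518K, 18.9-fold below wild type with an interval from 5.11 to 158.2. Their E518K levels lie under the limit of 6 counts per library, so the size of each fall is uncertain. Likeness of profile was taken as the root mean square difference of log2(TMM CPM + 1), centred per miRNA, over the 11 libraries and 212 candidates of at least 100 TMM CPM in induced wild type. Nearest to miR-140-3p were miR-99b-3p (0.57) and miR-99b-5p (0.83), against a median of 2.57 over the candidates, and its own partner miR-140-5p was at 0.76. Nearest to miR-335-3p were miR-92a-3p (0.72) and miR-294-5p (0.74), to miR-361-3p miR-30d-5p (0.63) and miR-30a-5p (0.65), and to miR-708-3p miR-106b-3p (0.63) and miR-101b-3p (0.64). Libraries with 0 counts enter this measure as 0, which bears on miR-335-3p and miR-294-5p in the KO.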

How the data were processed

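The authors deposited whole-number counts per mature miRNA for 11 libraries and, under the name pRPM, a table in RPM. STAR, bedtools and build GRCm38.p6 appear in the submitters' processing notes. The treatment of strand was not given in the sources used here. With library sizes taken from the counts, all deposited RPM values (100%) gave whole reads within 0.01, all equal to the counts. The count test on those reads therefore had to make the same calls for the 8 arms (4, 8 and 6) and is no separate check. A further deposited file was identical to the pRPM file and was not used. Groups came from sample titles. Counts were fitted with edgeR 4.0.16 (R 4.3.3; robust quasi-likelihood, 5 groups, TMM, filterByExpr with minimum count 10 and total 15) over 730 miRNAs; SE is the change divided by the root of F. Untreated groups had 1 library each. DESeq2 1.42.0 was an alternative. Simulated 4-fold changes were recovered in 79.5% (E518K against wild type), 72.0% (KO against wild type) and 62.5% (E518K against KO) of 200 changed among 730 miRNAs. False calls made up 1.85%, 4.00% and 6.02% of the calls in the same order. In the data more than 200 miRNAs were called, namely 464, 645 and 497 of 730 in that order. Recovery and false calls with so many miRNAs called were not tested. Introns are those of coding transcripts in GENCODE M21. The named miRNAs are the 8 arms, the 2 nearest profiles of the more abundant arm of each hairpin, and miRNAs sharing a seed. Chi-square per degree of freedom between replicates was 17.9 to 490, above counting noise, so none was merged. The members and lists were chosen with earlier results of these data known.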

Additional observations from a re-analysis of the deposited data

Results flagged for a closer look

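In the 1 clone of each genotype sequenced with and without doxycycline, 5 of the 8 arms moved in opposite directions on induction on the TMM scale. Each direction rests on a single pair of libraries, so the difference was not tested, and genotype, clone and library cannot be told apart. The log2 change from untreated to induced in E518K clone 8 minus that in wild-type clone 10 was 5.67 for miR-708-3p, 4.46 for miR-335-3p and 2.84 for miR-361-3p, all higher after induction in E518K and lower in wild type. For miR-335-5p it was at least 1.41, with the 0 counts of untreated E518K set to the limit of 6 counts. For miR-140-5p it was −0.93, with the opposite directions. With pRPM scaling wild-type clone 10 rose on induction for miR-335-3p (331 to 524), miR-361-3p (262 to 385) and miR-335-5p (19.8 to 24.9). E518K clone 8 rose for miR-140-5p (7.33 to 22.8), as did wild-type clone 10 (31.9 to 91.0). Of these arms only miR-708-3p kept opposite directions (16.7 to 1428 in E518K, 980 to 790 in wild type). On that scale the group factor differs between the untreated and induced library of each clone. No group had enough libraries for a check of single libraries far from the others.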

How the results depend on the processing

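No paired analysis was possible because the groups compared share fewer than 2 clone or replicate numbers. In E518K against wild type, 8 of 8 arms were called with the DGCR8-independent list, and 3 to 5 under the other alternatives. In KO against wild type 7 or 8, and in E518K against KO 6 to 8 were called under all alternatives. Leaving out 1 library gave 3 to 4, 8, and 6 to 7 calls. Values that changed sign in E518K against wild type were those of miR-335-3p (−0.16 with size factors and with DESeq2, −0.089 with pRPM scaling, −2.72 with the list), miR-708-5p (0.20 with total counts) and miR-708-3p (−1.79 with the list). With 1 library left out, miR-335-3p ranged from −0.27 (without wild-type clone 12) to 0.94, with −0.12 without clone 10, miR-335-5p from −1.17 to 0.39, miR-361-3p from −0.95 to 0.0089 and miR-708-5p from −0.34 to 0.68, with 0.05 without E518K clone 13. The highest of each came without wild-type clone 16, a fit in which the median of all tested miRNAs also rose. In E518K against KO they were those of miR-140-5p (−0.10 with total counts) and miR-140-3p (1.44 with pRPM scaling, 2.20 with the list, and −0.94 to 0.29 with 1 library left out, with 0.17 without KO library 1). Over single libraries left out, the difference in 5p share was −1.72 to 0.155 percentage points for miR-140, −3.38 to −1.66 for miR-335, −12.1 to −5.67 for miR-361 and −13.3 to −7.41 for miR-708. The causes were not tested. A count of 0 in a KO library allows a level of up to 12.8 to 18.3 TMM CPM.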
